A study of Mus musculus with 6 samples.

Results

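Lysosomes break down proteins, glycans and lipids with acid hydrolases that are made in the endoplasmic reticulum, tagged with mannose 6-phosphate and delivered by receptors. Their membrane carries a proton pump, the V-ATPase, that keeps the lumen acidic, and heavily glycosylated proteins that resist digestion. Transcription factors of the MiT/TFE family (TFEB, TFE3, MITF and TFEC) drive many of these genes together. In blood-forming tissue the compartment is most prominent in macrophages and osteoclasts, which degrade what they engulf or resorb.

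The 48 lysosomal hydrolase and membrane genes described here were chosen by name, as a list of known lysosomal genes, with earlier results of these data known. They came out of 55487 genes in the table and 18766 that were tested, those whose average across libraries was 3 or more. All 48 passed that minimum, with means from 9.03 (Sgsh) to 16.82 (Psap). Total RNA had been sequenced from mouse bone marrow cells labelled cKIT+ (Kit is a receptor of blood stem and progenitor cells), transduced with a lentivirus that overexpressed either MLLT3 (group WT, n = 3) or MLLT3 K63E K67E (group DM, n = 3). MLLT3 is a chromatin protein whose YEATS domain reads acylated histones, and the question of the comparison is what the altered protein changes in gene expression. In both groups the cells were sorted and kept in methylcellulose for 8 days with gentamycin, Flt3L (10 ng/mL) and further cytokines that included EPO, SCF, GM-CSF, IL-3, IL-6 and IL-11 (20 ng/mL each), and with 200 nM 4-hydroxytamoxifen, added to delete endogenous Mllt3. Cells without the tamoxifen deletion or without a vector are not analysed here, so both groups carry an overexpressed protein, and the labels do not give the age or sex of the mice or say whether replicates came from separate animals. The p-values therefore measure the spread between these libraries, which may be technical.

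The table gives each gene a regularized log (rlog) value, a log2 scale in which 1 unit is a 2-fold difference and low values are pulled toward the gene's mean. Depth is unknown, since the table holds no counts. The targeted gene, Mllt3, was at 12.87, 12.6 and 12.44 in WT and 12.44, 12.03 and 11.99 in DM, and transcripts of the vector and of the endogenous gene are not separated in these values. Its change was -0.48 (SE 0.137, adjusted p 0.0448) and did not pass when WT replicate 1 (-0.36, 0.152), WT replicate 2 (-0.5, 0.0606), DM replicate 2 (-0.42, 0.15) or DM replicate 3 (-0.4, 0.161) was left out, with no filter on the mean (0.0651) or with no mean-variance trend (0.0542). The labelled cell type was read from Kit, at 14.58, 14.32 and 14.29 in WT and 14.9, 14.3 and 14.59 in DM (change 0.2, SE 0.144, limma adjusted p 0.368), so its transcript was abundant in all 6 libraries. Kit is also a gene of mast cells, and transcripts of mast cell granule enzymes were among the most abundant of all per kilobase. Without division by length, the mean rlog value of Cpa3 was 17.74 in WT and 17.98 in DM. That of Tpsb2 was 16.83 and 16.65, and that of Cma1 16.43 and 16.5 (these genes were named after their values were seen). Per kilobase of exon, Cpa3 stood at 17.14 in WT and 17.38 in DM. The level of Kit therefore does not tell progenitors from mast cells. The summed log2 level of 8 mast cell and basophil markers was 18.83 to 19.21 in WT and 18.86 to 19.34 in DM. The median over all tested genes lay between 8.03 and 8.11 in the 6 libraries, and no 2 libraries were identical.

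Most of the lysosomal genes were higher in DM. With limma and Benjamini-Hochberg adjustment over all tested genes, 36 of the 48 rose and 1, Arsb, fell. Among all tested genes 9.2% rose and 4.71% fell. The median change of the 48 was 0.46 on the log2 scale (a fold of 1.37), against 0.01 over all tested genes. The mean was higher in DM for 47 of the 48, against 51.6% of tested genes. All 3 DM values lay above all 3 WT values for 42 of the 48, against 21.5% of tested genes. The tested genes reach down to a mean of 3 and were not matched to the 48 for level. With a minimum mean of 5, 15.5% of 13448 tested genes rose, with a median change of 0.06, as did 40 of the 48. The changes were moderate, since none of the 48 reached 2-fold and 19 rose by at least 0.5, as did 2.57% of all tested genes (482).

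Leaving out 1 library at a time changed how many rose: 19 did when WT replicate 1 was dropped, 17 for DM replicate 2, 26 for DM replicate 3, 27 for WT replicate 3, 29 for DM replicate 1 and 39 for WT replicate 2. In the same order, 3.28%, 3.19%, 5.07%, 5.72%, 6.43% and 12.4% of all tested genes rose, so the background moved along with the members. The median change of the 48 stayed between 0.4 and 0.55 in these 6 fits. After quantile normalization 31 of the 48 rose, 1 fell and the median was 0.34. In that fit 7.26% of all tested genes rose, and the share of rises among all called genes went from 66.1% to 51.3%. Of the 36 genes, 16 were called higher in every one of the 12 alternative fits: Ctsa, Ctsb, Ctsd, Ctss, Lgmn, Tpp1, Gla, Hexa, Idua, Lipa, Npc1, Npc2, Cd68, Scarb2, Atp6v0d2 and Atp6ap1.

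**Figure D1:**
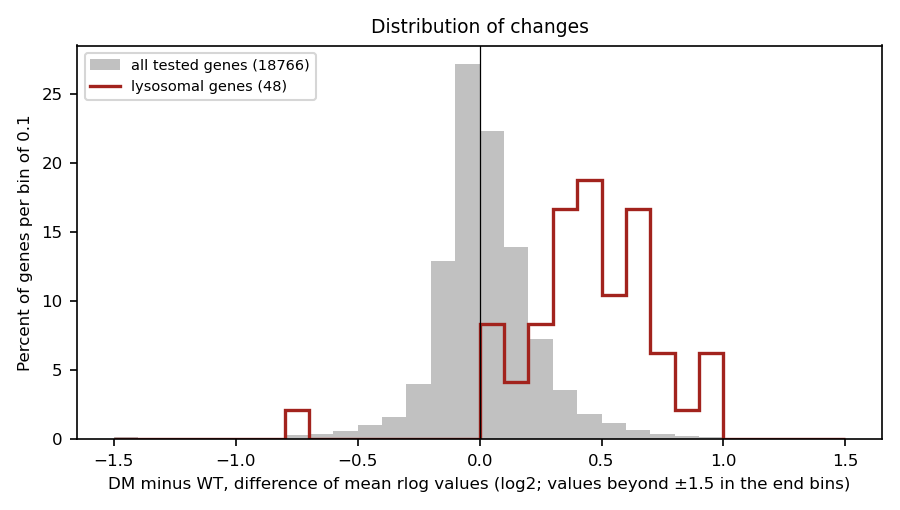
Percent of genes (vertical axis) in bins of 0.1 of the difference of mean rlog values, DM minus WT (horizontal axis, log2), for all 18766 tested genes in grey and for the 48 lysosomal genes as the red line. The grey distribution is centred near 0 and the red line near 0.46, with a single lysosomal gene, Arsb, below 0.

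Promoters of the 48 genes were read for CACGTG, the core of the site that MiT/TFE factors bind. They were also read for its longer form TCACGTGA, which contains it. Both are their own reverse complement, so a match is the same on both strands. The RefSeq table (GRCm38.p6) gave windows from 250 bases before to 50 bases after a transcription start for 40 of the 48 genes. Of these, 15 (37.5%) held CACGTG in at least 1 of their windows, against 11.1% of the 12349 tested genes with a window. The longer form stood in 7 (17.5%), against 1.91% of tested genes. These shares describe the sequences of the listed genes and say nothing of their change in DM. CACGTG is also recognised by other factors, such as MYC and USF proteins, and a match in a sequence does not show binding. Ctsa, Cln3, Lgmn and Psap had more than 1 window, and those of Psap held no match. For Ctsa, Cln3 and Lgmn the matches lay in a window inside the annotated gene, and the window at its annotated start held none. The only windows of Atp6v1a and Ctsl, each with a match, also lay inside the annotated gene. Below are stretches from the 7 promoters with the longer form and from Lamp1, which held 4 matches. A stretch from Glb1, which held 1 match but whose transcript did not pass the test, is added. Each is written 5′ to 3′ on the strand of the gene, with every CACGTG in capitals.
Ctsd: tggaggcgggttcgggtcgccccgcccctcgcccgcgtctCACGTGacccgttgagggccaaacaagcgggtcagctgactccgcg
Ctsa: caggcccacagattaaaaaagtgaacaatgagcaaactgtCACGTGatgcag
Gla: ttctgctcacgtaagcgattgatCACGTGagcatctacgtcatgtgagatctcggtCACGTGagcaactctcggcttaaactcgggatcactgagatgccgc
Mcoln1: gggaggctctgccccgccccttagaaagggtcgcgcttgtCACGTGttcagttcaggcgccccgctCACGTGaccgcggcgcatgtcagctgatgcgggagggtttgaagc
Cln3: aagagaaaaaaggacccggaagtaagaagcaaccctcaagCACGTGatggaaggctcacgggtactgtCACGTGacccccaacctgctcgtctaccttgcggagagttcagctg
Atp6v1a: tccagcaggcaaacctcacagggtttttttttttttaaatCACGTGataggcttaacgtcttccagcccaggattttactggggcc
Atp6v0d1: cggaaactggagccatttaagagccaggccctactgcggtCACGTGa
Lamp1: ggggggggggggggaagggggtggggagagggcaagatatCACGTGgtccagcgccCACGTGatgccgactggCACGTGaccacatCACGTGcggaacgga
Glb1: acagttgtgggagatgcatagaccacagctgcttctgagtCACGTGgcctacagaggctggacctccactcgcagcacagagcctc

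On GRCm38 these stretches lie at chr7:142387880-142387965 (Ctsd, minus strand), chr2:164833721-164833772 (Ctsa, plus), chrX:134601154-134601255 (Gla, minus), chr8:3500408-3500518 (Mcoln1, plus), chr7:126583312-126583425 (Cln3, minus), chr16:44139345-44139430 (Atp6v1a, minus), chr8:105566061-105566107 (Atp6v0d1, minus), chr8:13159060-13159160 (Lamp1, plus) and chr9:114400990-114401075 (Glb1, plus). The Lamp1 matches began at bases -61, -45, -28 and -15 from the start, and the Mcoln1 matches at -71 and -45. The 7 genes with the longer form all rose, by 0.33 to 0.67 (median change 0.41). Of all 48 genes 36 rose, with a median change of 0.46, and whether the longer form goes with the change was not tested. Mcoln1, Cln3, Atp6v1a and Atp6v0d1 lost their calls without WT replicate 1 and without DM replicate 2, while Ctsa, Ctsd and Gla kept theirs in all 12 alternative fits. By the shorter match, 11 of 15 genes with CACGTG rose (median change 0.41), as did 18 of 25 genes with a window and no match (median 0.44) and 7 of the 8 without a window (median 0.56). Cd68, Ctss, Lipa and Psap, among the largest rises, had no match in their windows.

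The cathepsins and other proteases were the group with the highest median change, 0.66. Of 11 genes, 9 rose. Ctss (cathepsin S, which trims the chaperone of MHC class II molecules; ENSMUSG00000038642.10, chromosome 3, 95526786 to 95556403, plus strand) stood at 14.16, 14.66 and 13.82 in WT and 15.01, 15.44 and 15.07 in DM. The groups did not overlap, and the mean went from 14.21 ± 0.421 (SD, n = 3) to 15.17 ± 0.234, a change of 0.96 (SE 0.193, adjusted p 0.0115). Ctsb (cathepsin B, an abundant cysteine protease; ENSMUSG00000021939.8, chromosome 14, 63122462 to 63145923, plus strand) stood at 15.23, 15.64 and 15.03 in WT and at 16.02, 16.3 and 15.97 in DM, a change of 0.8 (SE 0.157, adjusted p 0.0108). Every DM library was above every WT library for Ctsb too.

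Lgmn, the asparaginyl endopeptidase that processes several cathepsins, had 10.74, 11.08 and 10.7 in WT and 11.38, 11.78 and 11.6 in DM, a change of 0.75 (SE 0.124, adjusted p 0.00626). Ctsl (cathepsin L, another broad cysteine protease) had 12.52, 12.87 and 12.28 in WT and 13.1, 13.36 and 13.22 in DM, a change of 0.67 (SE 0.137, adjusted p 0.012). In both genes replicate 2 gave the highest value of each group, and the groups were still apart. The rises of the others were 0.67 for Ctsd (the main aspartic protease), 0.66 for Ctsz (a carboxypeptidase), 0.61 for Ctsa (the protective protein of beta-galactosidase and neuraminidase), 0.5 for Ctsh (an aminopeptidase) and 0.5 for Tpp1 (tripeptidyl peptidase).

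The smallest change of the group was that of Ctsc, the dipeptidyl peptidase that activates the serine proteases of neutrophil granules, with 13.26, 13.48 and 13.47 in WT and 13.6, 13.78 and 13.67 in DM. The difference of 0.28 (SE 0.0882) did not pass the test (adjusted p 0.0634), though the groups were apart. It passed without WT replicate 2 (0.32, adjusted p 0.0435). Ctsk, the collagen-degrading cathepsin of osteoclasts, differed by 0.59 (SE 0.178, adjusted p 0.0532) with 1 WT value, 11.02, just above the lowest DM value, 11.01, and it passed without WT replicate 2 (0.8, adjusted p 0.00603). Leaving out DM replicate 2 ended the calls of Ctsl (0.61, adjusted p 0.05), Ctsz (0.6, 0.0516) and Ctsh (0.41, 0.0739), and that of Ctsh was also lost without WT replicate 1 (0.44, 0.074) and without DM replicate 3 (0.49, 0.0645).

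**Figure D2:**
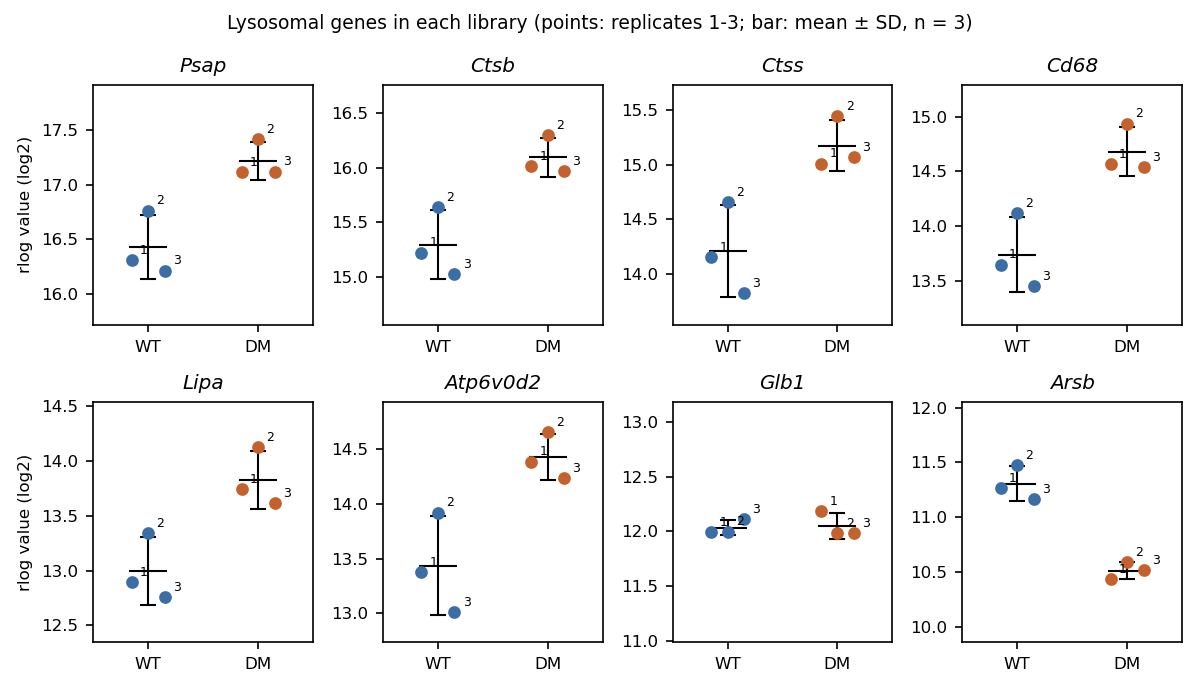
rlog values (vertical axes, log2, each spanning the same range) of 8 lysosomal genes in the 3 WT libraries (blue) and 3 DM libraries (orange), numbered by replicate, with the mean and SD as bars. Psap, Ctsb, Ctss, Cd68, Lipa and Atp6v0d2 are higher in every DM library than in any WT library, Glb1 overlaps, and Arsb is lower in every DM library.

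Glycosidases, which remove sugars from glycoproteins, glycolipids and glycosaminoglycans, rose in 7 of 10 cases with a median change of 0.38. Hexa (the alpha subunit of beta-hexosaminidase; ENSMUSG00000025232.8, chromosome 9, 59539540 to 59565109, plus strand) had 13.12, 13.26 and 13.01 in WT and 13.63, 13.89 and 13.56 in DM, a change of 0.56 (SE 0.104, adjusted p 0.00903). Gla (alpha-galactosidase A, which splits globosides) had 10.97, 11.23 and 10.81 in WT and 11.52, 11.63 and 11.47 in DM, a change of 0.53 (SE 0.103, adjusted p 0.00985). Both genes had no DM value within the WT range.

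Gusb (beta-glucuronidase) had 12.96, 13.15 and 12.76 in WT and 13.4, 13.61 and 13.28 in DM, a rise of 0.47 (SE 0.115, adjusted p 0.0251). Naglu (alpha-N-acetylglucosaminidase, a heparan sulfate enzyme) had 10.73, 10.92 and 10.55 in WT and 11.12, 11.31 and 11.11 in DM, a rise of 0.45 (SE 0.1, adjusted p 0.0173). These 2 groups of values were apart but by less than 0.2. Idua (alpha-L-iduronidase) rose by 0.44, and the mannosidases Man2b1 and Manba rose by 0.31 and 0.27.

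The 3 glycosidases that did not pass were Gaa (acid alpha-glucosidase, the glycogen enzyme; difference 0.17, SE 0.0748, adjusted p 0.17), Neu1 (neuraminidase; 0.07, SE 0.0761, 0.575) and Glb1 (beta-galactosidase; 0.02, SE 0.0796, 0.903). Glb1 had 11.99, 12 and 12.11 in WT and 12.19, 11.98 and 11.99 in DM, so the groups overlapped fully. The sign for Glb1 turned after quantile normalization (-0.09) and median centring (-0.02), and that for Neu1 after quantile normalization (-0.03). Neu1 and Glb1 encode enzymes that work in a complex with the product of Ctsa, which rose by 0.61. Without WT replicate 1 or without DM replicate 2 only 3 glycosidases rose, and 4 did without WT replicate 3 or without DM replicate 1. Man2b1 and Manba lost their calls in all of these fits and in the fit that left out DM replicate 3 (0.26 to 0.34 with adjusted p 0.0646 to 0.137, and 0.21 to 0.3 with 0.0753 to 0.166). The call of Gusb was lost in the first 4 of these fits (0.37 to 0.48, adjusted p 0.0515 to 0.1), and that of Naglu when WT replicate 1 (0.45, 0.059) or DM replicate 2 (0.38, 0.0747) was left out.

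The sulfatases, which remove sulfate from glycosaminoglycans and sulfolipids, were the group with the lowest median change, 0.1, and the group with the gene that fell. Arsb (arylsulfatase B, which acts on dermatan and chondroitin sulfate; ENSMUSG00000042082.7, chromosome 13, 93771630 to 93943016, plus strand) had 11.27, 11.48 and 11.16 in WT and 10.43, 10.59 and 10.51 in DM. The mean went from 11.3 ± 0.16 (SD, n = 3) to 10.51 ± 0.079, a change of -0.79 (SE 0.0889, adjusted p 0.0011), which is a fold of 0.577. The gap of 0.57 between the lowest WT and the highest DM value was wider than for any other of the 48 genes. Arsb was called lower in all 12 alternative fits, with changes from -0.89 to -0.7 and adjusted p-values up to 0.00758. Small noncoding or predicted genes (Gm25534, Gm26527 and Gm47210) are annotated on the strand opposite Arsb, and whether reads were counted by strand is not given in the sources used here.

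Ids (iduronate 2-sulfatase) had 10.85, 10.66 and 10.7 in WT and 11.26, 11 and 11.02 in DM, a rise of 0.35 (SE 0.0883, adjusted p 0.0275). Its call was lost without WT replicate 2 (0.31, adjusted p 0.0532), WT replicate 3 (0.33, 0.0555), DM replicate 1 (0.27, 0.0866), DM replicate 2 (0.4, 0.0511) or DM replicate 3 (0.39, 0.056). Sgsh (heparan N-sulfatase) had 9.05, 8.93 and 9.03 in WT and 9.06, 9.08 and 9.06 in DM, a difference of 0.06 (SE 0.0653, adjusted p 0.56). Galns (0.11, adjusted p 0.381), an enzyme of keratan sulfate, and Arsa (0.1, 0.354), which acts on sulfatide, did not pass either.

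**Figure D3:**
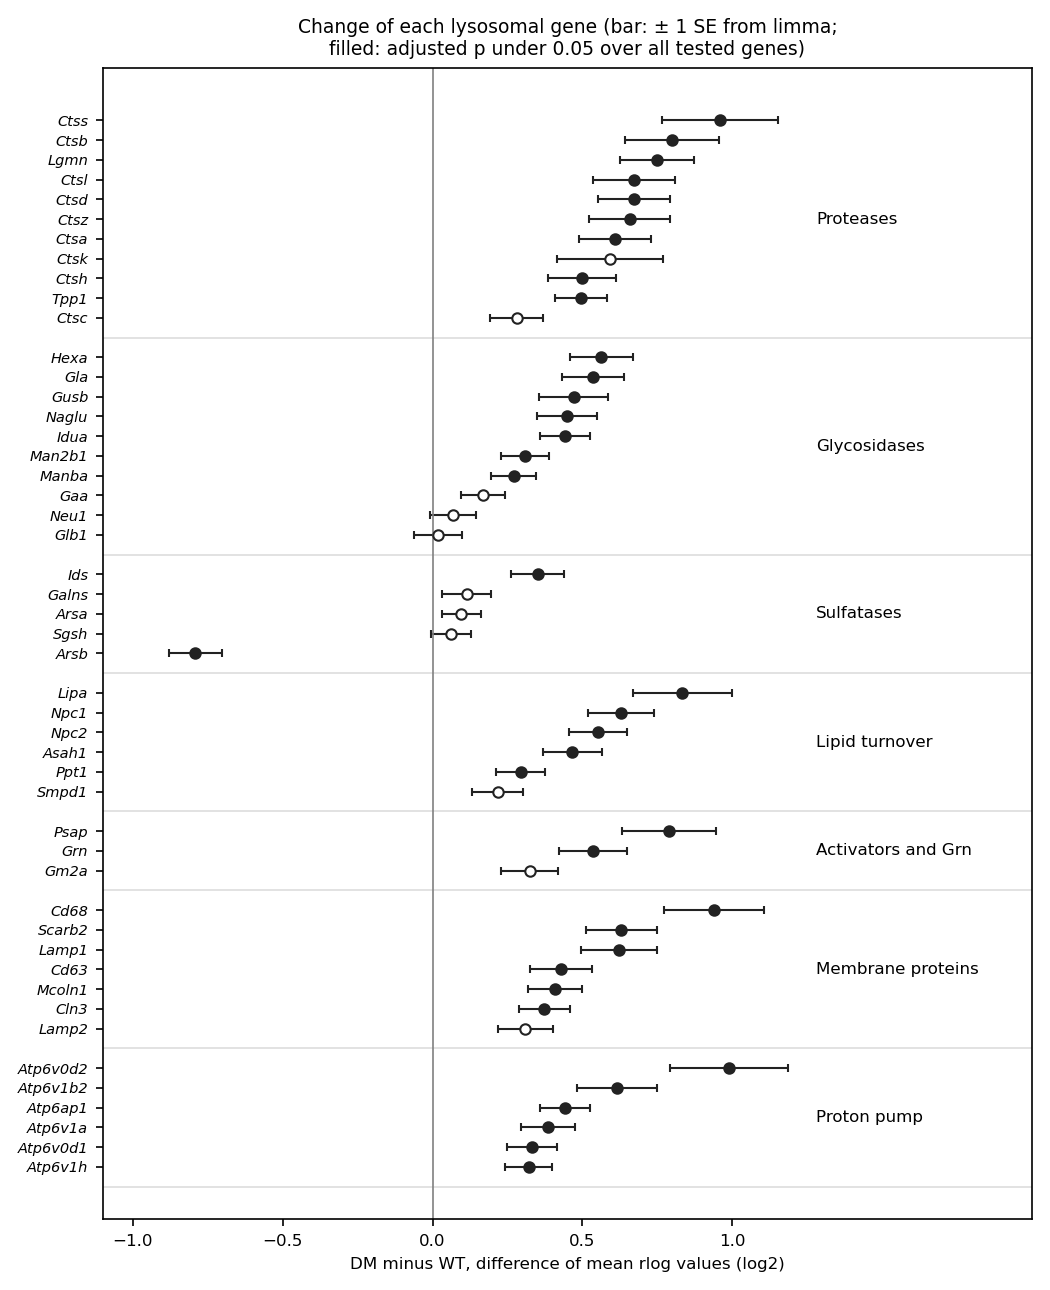
Difference of mean rlog values, DM minus WT (horizontal axis, log2), with 1 SE from limma as the bar, for each of the 48 genes arranged by role; filled points had an adjusted p under 0.05 over all tested genes. The 36 filled points right of 0 run from 0.27 (Manba) to 0.99 (Atp6v0d2), 1 filled point (Arsb) lies at -0.79, and 3 of the 5 sulfatases are open and near 0.

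Among the 6 genes of lipid turnover, 5 rose. Lipa (acid lipase, which frees cholesterol and fatty acids from lipoprotein lipids; ENSMUSG00000024781.16, chromosome 19, 34492318 to 34527474, minus strand) had 12.89, 13.35 and 12.76 in WT and 13.74, 14.13 and 13.62 in DM, a change of 0.83 (SE 0.165, adjusted p 0.0108). The transporters that export the freed cholesterol rose with it. Npc1, in the membrane, had 12.61, 12.96 and 12.58 in WT and 13.25, 13.48 and 13.31 in DM, a change of 0.63 (SE 0.111, adjusted p 0.00756). Npc2, in the lumen, had 12.73, 12.92 and 12.62 in WT and 13.26, 13.45 and 13.23 in DM, a change of 0.55 (SE 0.097, adjusted p 0.00741). For all 3 the lowest DM value was above the highest WT value by 0.27 to 0.31.

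Asah1 (acid ceramidase) had 11.97, 12.25 and 11.94 in WT and 12.39, 12.63 and 12.53 in DM, a rise of 0.47 (SE 0.0998, adjusted p 0.0146), and Ppt1 (which cleaves palmitate from proteins) rose by 0.29 (adjusted p 0.0427). Smpd1 (acid sphingomyelinase) had 9.98, 10.03 and 9.88 in WT and 10.32, 10.21 and 10.02 in DM, a difference of 0.22 (SE 0.0857) that did not pass (adjusted p 0.128), with DM replicate 3 inside the WT range. The number of lipid genes that rose was 3 without WT replicate 1, DM replicate 2 or DM replicate 3. In these fits Asah1 changed by 0.43 (adjusted p 0.0634), 0.41 (0.0653) and 0.46 (0.0542), and Ppt1 by 0.28 (0.139), 0.21 (0.169) and 0.33 (0.0833). Ppt1 also lost its call without WT replicate 3 (0.27, 0.084).

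Psap, the precursor of the saposins that present sphingolipids to their hydrolases, had the highest level of the 48 genes (ENSMUSG00000004207.14; chromosome 10, 60277627 to 60302597, plus strand). In WT it stood at 16.31, 16.76 and 16.21, and in DM at 17.12, 17.42 and 17.12. The mean went from 16.43 ± 0.293 (SD, n = 3) to 17.22 ± 0.173, a change of 0.79 (SE 0.158, adjusted p 0.0114). Grn (progranulin, which is carried to lysosomes with prosaposin) had 14.23, 14.51 and 14.18 in WT and 14.76, 15.02 and 14.75 in DM, a rise of 0.54 (SE 0.114, adjusted p 0.0144). Gm2a, the activator of beta-hexosaminidase on ganglioside, had 13.5, 13.42 and 13.16 in WT and 13.73, 13.66 and 13.65 in DM, and the difference of 0.32 (SE 0.0956, adjusted p 0.0505) did not pass, though the groups were apart. Without WT replicate 1 Psap (0.73, adjusted p 0.0502) and Grn (0.5, 0.0627) lost their calls, as did Grn without DM replicate 2 (0.45, 0.061), while Gm2a passed without WT replicate 2 (0.35, 0.0455).

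Of 7 proteins of the lysosomal membrane, 6 had transcripts that rose. Cd68 (a glycoprotein of late endosomes and lysosomes, widely used to mark macrophages; ENSMUSG00000018774.13, chromosome 11, 69664213 to 69666153, minus strand) had 13.65, 14.12 and 13.45 in WT and 14.57, 14.94 and 14.54 in DM. The mean went from 13.74 ± 0.344 (SD, n = 3) to 14.68 ± 0.224, a change of 0.94 (SE 0.167, adjusted p 0.00777), with a gap of 0.42 between the groups. Scarb2 (LIMP-2, the receptor that carries glucocerebrosidase to lysosomes) had 11.56, 11.88 and 11.52 in WT and 12.14, 12.5 and 12.21 in DM, a rise of 0.63 (SE 0.118, adjusted p 0.00929).

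Lamp1, a main structural glycoprotein of the membrane, had 14.19, 14.55 and 14.14 in WT and 14.81, 15.11 and 14.82 in DM, a rise of 0.62 (SE 0.127, adjusted p 0.0124). Its relative Lamp2, which also serves chaperone-mediated autophagy, had 13.44, 13.63 and 13.36 in WT and 13.74, 13.89 and 13.72 in DM, and the difference of 0.31 (SE 0.0924, adjusted p 0.0522) did not pass. Whether Lamp1 and Lamp2 differed in their change was not tested. The tetraspanin Cd63 had 14.52, 14.46 and 14.41 in WT and 15.02, 14.97 and 14.69 in DM, a rise of 0.43 (SE 0.102, adjusted p 0.0222). The calcium channel gene Mcoln1 rose by 0.41 (SE 0.0901, adjusted p 0.0162) and Cln3, mutated in a childhood lysosomal disease, by 0.37 (SE 0.0856, adjusted p 0.0194).

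Without WT replicate 1 or without DM replicate 2 only Cd68 and Scarb2 of these membrane genes passed. Lamp1 changed there by 0.57 (adjusted p 0.0534) and 0.52 (0.0505), Cd63 by 0.46 (0.0632) and 0.39 (0.0919), Mcoln1 by 0.39 (0.0652) and 0.36 (0.0717), and Cln3 by 0.3 (0.0861) and 0.38 (0.0652). Cd63 was also lost without WT replicate 3 (0.4, 0.0591) and without DM replicate 1 (0.36, 0.0772). Mcoln1 (0.38, 0.0654) and Cln3 (0.33, 0.0821) were lost without DM replicate 3, and Lamp2 passed without WT replicate 2 (0.39, 0.015).

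All 6 genes of the proton pump rose. The largest change of all 48 genes was that of Atp6v0d2, an isoform of the d subunit of the membrane sector that is typical of macrophages and osteoclasts (ENSMUSG00000028238.6; chromosome 4, 19876841 to 19922605, minus strand). It had 13.38, 13.92 and 13.02 in WT and 14.39, 14.66 and 14.24 in DM, and the mean went from 13.44 ± 0.456 (SD, n = 3) to 14.43 ± 0.211, a change of 0.99 (SE 0.198, adjusted p 0.0114). Its widely expressed counterpart Atp6v0d1 rose by 0.33 (SE 0.0835, adjusted p 0.0278). The WT libraries of Atp6v0d2 were spread over more than those of any other of the 48 genes, and no WT value reached the lowest DM value.

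In the catalytic sector, Atp6v1b2 had 12.94, 13.34 and 12.82 in WT and 13.6, 13.82 and 13.53 in DM, a rise of 0.62 (SE 0.134, adjusted p 0.0153). Atp6v1a, its partner subunit, had 13, 13.27 and 13.03 in WT and 13.43, 13.57 and 13.45 in DM, a rise of 0.38 (SE 0.0906, adjusted p 0.0213). The accessory subunit gene Atp6ap1 had 12.73, 12.88 and 12.69 in WT and 13.18, 13.31 and 13.13 in DM, a rise of 0.44 (SE 0.0829, adjusted p 0.00925). Atp6v1h, a regulatory subunit, had the smallest change, with 11.23, 11.31 and 11.11 in WT and 11.61, 11.55 and 11.45 in DM (0.32, SE 0.0773, adjusted p 0.0234). Only Atp6v0d2 and Atp6ap1 passed without WT replicate 1 or without DM replicate 2, and 3 of the 6 passed without WT replicate 3. In the first 2 of these fits Atp6v1b2 changed by 0.57 (adjusted p 0.0612) and 0.53 (0.0632), Atp6v1a by 0.33 (0.0995) and 0.34 (0.0941), Atp6v0d1 by 0.32 (0.106) and 0.28 (0.123), and Atp6v1h by 0.33 (0.079) and 0.31 (0.0885). Further losses were Atp6v0d1 when WT replicate 3 (0.28, 0.0644), DM replicate 1 (0.35, 0.0608) or DM replicate 3 (0.37, 0.0577) was dropped, Atp6v1a for WT replicate 3 (0.35, 0.051) and DM replicate 3 (0.4, 0.0615), and Atp6v1h for WT replicate 3 (0.27, 0.0502) and DM replicate 1 (0.28, 0.0823).

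Levels were compared between genes per kilobase of annotated exon, as the mean rlog value in WT minus the log2 of the exon length, for the 46 genes whose identifiers matched GENCODE M21 (Gla and Grn did not). On this scale Psap led with 14.97, followed by Ctsd (14.16), Ctss (13.77), Ctsz (13.55) and Cd68 (13.41), and Sgsh was lowest with 6.86. Among 14030 protein-coding genes tested, Psap stood at percentile 99.8 and Ctsd at 99.7, Sgsh was at 47.7, and 27 of the 46 genes were at or above percentile 90. Across the 48 genes the rlog level in WT and the change had a Spearman rho of 0.54 and a Pearson r of 0.5, given as a description, since the genes share the same 6 libraries and low values are shrunken by the transform.

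The 48 genes also ordered the libraries within each group. WT replicate 2 was the highest WT library for 43 of them and DM replicate 2 the highest DM library for 39, and 38 genes met both. The mean deviation of the 48 genes from their 6-library mean was -0.27, -0.04 and -0.36 in WT and 0.18, 0.34 and 0.16 in DM. WT replicate 2 thus lay nearest to the DM libraries, yet below each of them.

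**Figure D4:**
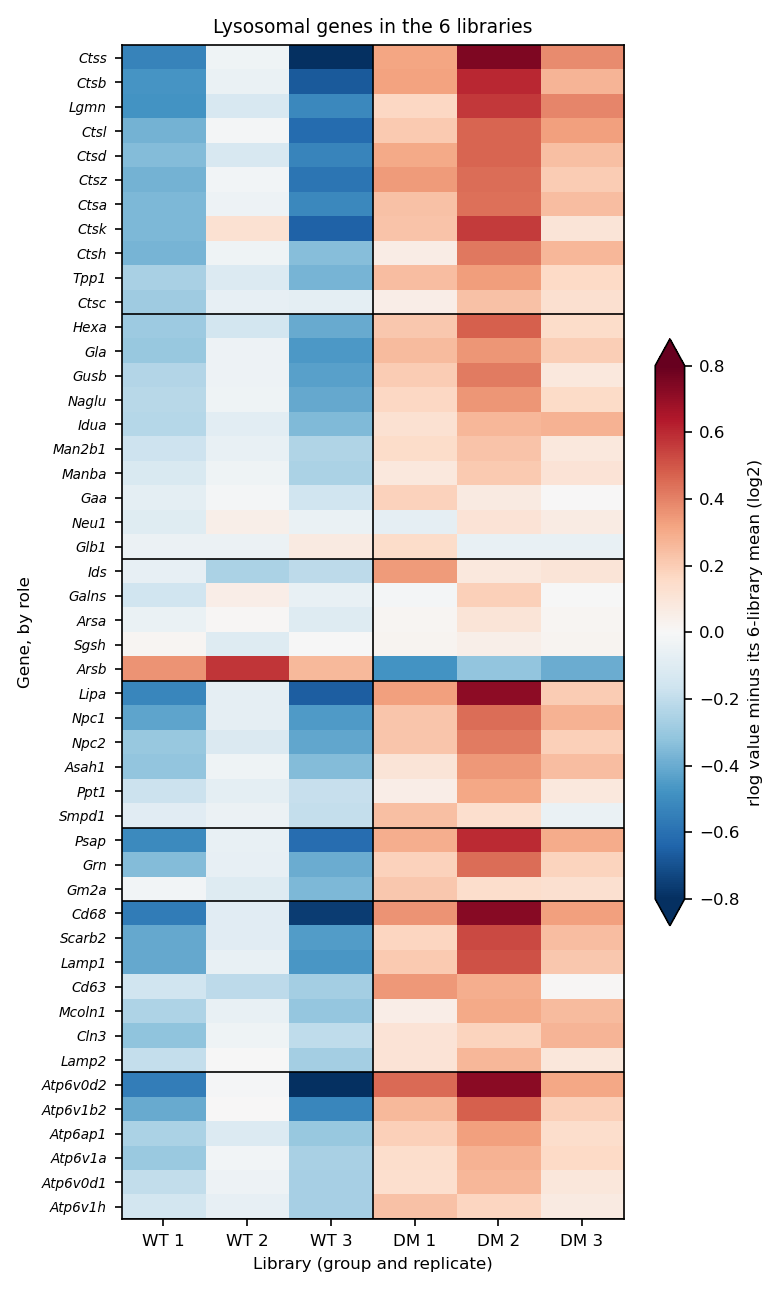
rlog value minus its 6-library mean (colour, log2, clipped at 0.8 in either direction) for the 48 genes in rows, arranged by role, and the 6 libraries in columns. WT 1 and WT 3 are blue and the DM columns red in nearly all rows, WT 2 is pale, DM 2 is the deepest red for most genes, and Arsb shows the opposite pattern.

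Other genes of the same organelle, taken from lists of related genes, were read from the same fit. Of 55 further lysosomal and proton pump genes tested, 40 rose and 1 fell, with a median change of 0.42. Among all tested genes 9.2% rose and 4.71% fell, and these shares are the background for every list below. Among 26 enzymes and other lumenal proteins 18 rose. These included Pld3 (0.7, SE 0.145, adjusted p 0.0129), an exonuclease of the lumen, and Acp2 (0.64, SE 0.0996, 0.00496), an acid phosphatase. Among 17 membrane proteins tested 12 rose, led by the metal transporter Slc11a1 (0.96, SE 0.129, 0.00271) and the channels Mcoln3 (0.84, SE 0.18, 0.0146) and Mcoln2 (0.74, SE 0.106, 0.0036), and the channel Tpcn1 fell (-0.27, SE 0.0768, 0.0429). Tpcn1 was named after its values were seen. Of 12 other pump subunits 10 rose, led by Atp6v1c1 (0.64, SE 0.109, 0.00697), Atp6v0a1 (0.55, SE 0.108, 0.0104) and Atp6v0c (0.53, SE 0.115, 0.0156).

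With WT replicate 1 dropped, and then with DM replicate 2 dropped instead, the numbers that rose were 11 and 11 for the lumenal proteins, 6 and 4 for the membrane proteins and 3 and 3 for the pump subunits, and 6 pump subunits rose with DM replicate 3 dropped. Over all tested genes the share that rose also shrank, to 3.28%, 3.19% and 5.07% in these 3 fits. It was 5.72% without WT replicate 3 and 6.43% without DM replicate 1, which bears on the lists below. In these first 2 fits Pld3 changed by 0.65 (adjusted p 0.0513) and 0.6 (0.0518) and Atp6v0c by 0.47 (0.0661) and 0.44 (0.0652), and Mcoln3 was lost without DM replicate 2 (0.69, 0.0505). Tpcn1 was lost without any 1 of 5 libraries (all but WT replicate 3), with changes from -0.32 to -0.22 and adjusted p-values from 0.0598 to 0.15.

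Delivery of the enzymes was represented by 13 genes of the mannose 6-phosphate route, of which 4 rose. Igf2r, the large mannose 6-phosphate receptor, had 11.76, 12.23 and 11.71 in WT and 12.81, 12.89 and 12.68 in DM, a change of 0.89 (SE 0.129, adjusted p 0.0038), and was called in all 12 alternative fits. The gene Airn lies on the strand opposite Igf2r. The small receptor M6pr (0.34, SE 0.0867, 0.0284) and the uncovering enzyme Nagpa (0.33, SE 0.0931, 0.0415) rose by less. The number that rose in this list was 1 or 2 without WT replicate 1, WT replicate 3, DM replicate 1, DM replicate 2 or DM replicate 3. In these 5 fits M6pr changed by 0.28 to 0.39 (adjusted p 0.0531 to 0.125), and Nagpa lost its call in 4 of them, keeping it without DM replicate 1.

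Among 17 genes of the MiT/TFE factors and of nutrient sensing at the lysosome surface 13 rose. By size these were led by Fnip2 (0.74, SE 0.107, adjusted p 0.00385), a partner of folliculin, Rragd (0.64, SE 0.123, 0.01), a Rag GTPase, and Mitf (0.52, SE 0.0714, 0.00293). Mitf had 11.41, 11.49 and 11.33 in WT and 12, 11.88 and 11.92 in DM, with the groups apart. The other factors of the family, named after their values were seen, were Tfe3 (0.38, SE 0.0821, adjusted p 0.0152) and Tfeb (0.37, SE 0.0992, 0.0358), which rose, and Tfec, which differed by -0.01 (SE 0.106, 0.951). The number that rose in this list was 4 when WT replicate 1 or DM replicate 2 was dropped, 6 for DM replicate 3 and 8 for WT replicate 3. Tfe3 was lost without WT replicate 1 (0.32, adjusted p 0.0705), DM replicate 2 (0.34, 0.0703) or DM replicate 3 (0.38, 0.0525). Tfeb was lost without these 3 (0.29 to 0.34, 0.122 to 0.135) and without WT replicate 3 (0.37, 0.06). With all libraries it was also lost with no filter (0.0711) and after quantile normalization (0.3, 0.068). Fnip2, Rragd and Mitf were called in all 12 alternative fits.

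Inhibitors of cathepsins moved in both directions. Of 7 tested, 2 rose, Cstb (stefin B; 0.72, SE 0.0979, adjusted p 0.0029) and Cst3 (cystatin C; 0.39, SE 0.111, 0.0433, named after its values were seen). The other 2 that changed fell, Stfa1 (-2.8, SE 0.266, 0.000394) and Stfa2 (-1.31, SE 0.305, 0.0203), which belong to a family of near-identical copies and are uncertain for that reason. Cst3 passed in none of the fits that left out WT replicate 1, WT replicate 3, DM replicate 1, DM replicate 2 or DM replicate 3, since only 1 inhibitor rose in each of them. Stfa2 was lost without WT replicate 3 (-1.12, adjusted p 0.051) and without DM replicate 2 (-1.34, 0.0545).

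Of 20 autophagy genes, which bring cytoplasmic cargo to lysosomes, 8 rose and 1 fell, with a median change of 0.22. The largest rises were Gabarapl1 (0.51, SE 0.0743, adjusted p 0.00385), an ATG8 protein of the autophagosome membrane, Tecpr1 (0.45, SE 0.094, 0.0129), which acts in fusion with lysosomes, and Rab7 (0.42, SE 0.0959, 0.0185), the GTPase of late endosomes. Atg12, a ubiquitin-like conjugation factor named after its values were seen, fell (-0.41, SE 0.118, 0.0459). The number that rose was 1 when WT replicate 1 or DM replicate 2 was dropped, 2 for DM replicate 3 and 5 for WT replicate 3, and Gabarapl1 was called in all 12 alternative fits. Tecpr1 was lost in the first 3 of these fits (0.39 to 0.44, adjusted p 0.0531 to 0.0586) and Rab7 in all 4 (0.37 to 0.43, 0.051 to 0.0839). The call of Atg12 was lost without any 1 of 5 libraries, with WT replicate 3 the exception (-0.44 to -0.3, adjusted p 0.0852 to 0.155).

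In bulk RNA, fewer cells of a type and less RNA per cell cannot be told apart, and markers of several cell types moved along with the lysosomal genes. Of 11 macrophage markers tested, 6 rose, with a median change of 0.48. For this and the other marker lists the background is the 9.2% of all tested genes that rose and the 4.71% that fell. Their summed level on the linear scale, given as log2, was 16.31 to 17.07 in WT and 17.46 to 17.68 in DM. Gpnmb made up 71.1% to 78.9% of that sum. Without it the sum was 14.52 to 14.96 in WT and 15.21 to 15.47 in DM, and 5 of 10 markers rose with a median change of 0.4. The largest changes were in Gpnmb (0.96, SE 0.194, adjusted p 0.012), itself a protein of lysosome-related organelles, and Mertk (0.81, SE 0.168, 0.0131), a receptor for dying cells, which lost its call without DM replicate 2 (0.69, 0.0504). None of the listed macrophage genes was at 0 in all libraries, but the complement genes of tissue macrophages were very low, with C1qa under the minimum for testing and C1qb at a mean of 3.07 in WT and 3.02 in DM. The macrophage list deviated by -0.28, -0.06 and -0.32 in the WT libraries and by 0.1, 0.3 and 0.25 in the DM libraries, so replicate 2 was the highest of each group there as well. That was not particular to macrophage markers, since it also held for the autophagy, MiT/TFE and nutrient sensing, and dendritic cell lists. In the monocyte and neutrophil lists DM replicate 3 was the highest DM library.

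Monocyte markers went both ways, with 2 of 7 higher and 3 lower and a summed log2 level of 13.97 to 14.18 in WT and 13.03 to 13.62 in DM. The lowest of these were F13a1 (-1.49, SE 0.115, adjusted p 0.000134) and Ly6c2 (-1.13, SE 0.162, 0.00361). Ccr2 also fell (-0.78, 0.00975), and Klf4 (0.78, 0.0114) and Irf8 (0.56, 0.016) rose, all 3 named after their values were seen. Of 12 neutrophil markers 11 fell, led by Mpo (-4.23, SE 0.409, 0.000444) and Elane (-3.96, SE 0.261, 0.000118), and the summed log2 level was 18.46 to 18.9 in WT and 16.85 to 17.76 in DM. Among 5 osteoclast markers tested 2 rose, Dcstamp (0.47, SE 0.0724, 0.00492) and Nfatc1 (0.24, SE 0.0676, 0.0449). Nfatc1 kept its call without WT replicate 2 alone among the 6 fits that left a library out (0.21 to 0.25 and adjusted p 0.0888 to 0.159 in the others). Of 4 dendritic cell markers tested, Itgax (0.98, SE 0.193, 0.0108) and H2-Ab1 (0.79, SE 0.134, 0.00684) rose and Flt3 fell (-0.3, SE 0.0878, 0.0494), and Flt3 was named after its values were seen. Flt3 was low, with a mean of 4.54 in WT and 4.24 in DM, and its call was not followed through the alternative fits. Cd209a, Siglech and Xcr1 were under the minimum for testing. Of the other lists, 3 of 6 eosinophil markers fell, including Epx (-1.46, 0.000118) and Prg3 (-1.29, 0.000118). Among 8 mast cell and basophil markers Hdc fell (-0.62, 0.0457), a call lost in 7 of 12 alternatives: no filter, no trend, median centring, and leaving out WT replicate 2, WT replicate 3, DM replicate 2 or DM replicate 3 (-0.67 to -0.43, adjusted p 0.0505 to 0.139). Of 7 megakaryocyte markers Vwf (0.54, 0.00667) and Gp1ba (0.55, 0.017) rose, and Gp1ba lost its call after quantile normalization (0.44, 0.0611) and with DM replicate 2 dropped (0.53, 0.0625). Of 8 progenitor markers Mecom rose (0.52, 0.0189) and Myb fell (-0.65, 0.0127). Dropping DM replicate 2 ended the calls of Mecom (0.53, 0.0516) and Myb (-0.57, 0.0529), and dropping DM replicate 3 that of Myb (-0.6, 0.0526). Of 7 erythroid markers tested with limma 0 passed, and 0 had an unadjusted p under 0.05. The part of these cell types in the change of the lysosomal genes was not tested.

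**Figure D5:**
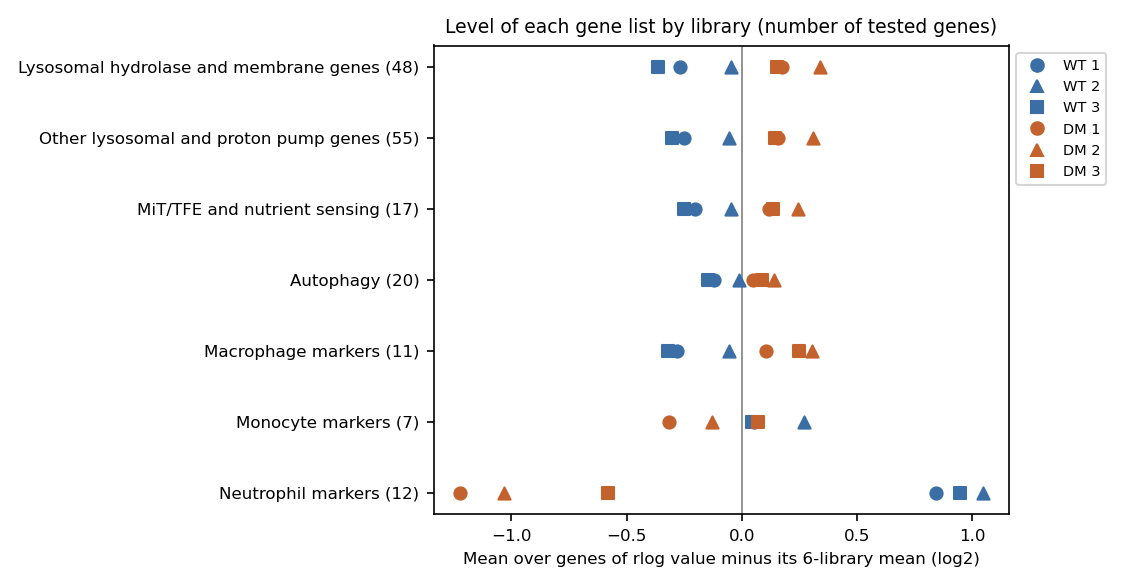
Mean over the genes of each list (rows, number of tested genes in brackets) of the rlog value minus its 6-library mean (horizontal axis, log2), with 1 point per library, WT in blue and DM in orange, shaped by replicate. The 48 lysosomal genes run from -0.36 to -0.04 in WT and from 0.16 to 0.34 in DM, the macrophage markers run alike, and the neutrophil markers lie on the opposite sides.

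Genes on the opposite strand overlap 19 of the 46 annotated members, and reads from such pairs may be shared if strand was not used in counting. Of the 27 genes with no such neighbour 20 rose, with a median change of 0.45, close to that of all 48. On the other strand, Ctsb overlaps Fdft1, Ctsz overlaps Nelfcd, Lamp1 overlaps Grtp1, Npc1 overlaps Rmc1 and Atp6v1b2 overlaps Slc18a1. Ctsa overlaps Neurl2 and Pltp there, Hexa overlaps Tmem202, and Idua overlaps Dgkq and Slc26a1. Further pairs are Ppt1 with Cap1, Cln3 with Apobr, Atp6v1h with Rgs20 and Sgsh with Card14. The others with such a neighbour are Ctsc, Ctsl, Scarb2, Manba, Galns, Arsa and Arsb. Cd68, Lipa, Psap, Lgmn and Atp6v0d2 have no opposite-strand neighbour in the annotation.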

How the data were processed

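The authors deposited 1 table of rlog values on the log2 scale, with a column per library. That the transform is rlog was inferred from the table's name, its values (-1.97 to 21.88, not whole) and the submitters' processing notes, which name DESeq2 1.30.0, STAR 2.7.3, cutadapt 2.6 and mm10. The counting tool, annotation and use of strand are not given in the sources used here. The 142699 lines were merged to 55487 genes, since repeats of a gene were identical, and 7553 genes were at 0 in all 6 libraries. Changes were tested with limma 3.58.1 in R 4.3.3 (mean-variance trend, prior degrees of freedom 5.82, no covariate) over the 18766 genes averaging 3 or more, with Benjamini-Hochberg adjustment and a threshold of 0.05; "rose" and "fell" mean past it. "Adjusted p" in the report is this value throughout. The fit was tested on simulated data. No set test was run. Coordinates and exon lengths came from GENCODE M21 on GRCm38, the assembly of mm10, with exon length as the union of annotated exons. Promoter windows came from RefSeq.

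Members and lists were chosen with earlier results of these data known. Library values are given for the up to 4 called genes per role with the largest change, for called genes that fell and for the smallest change per role. From each related list up to 3 called genes are named, and from each marker list up to 2; others are said to be named after their values were seen. Alternatives were no filter, a mean of at least 5, no trend, quantile normalization, median centring, a replicate block and each library left out. In fits that left out a library, 1 group had 2 libraries. One gene of a related list that this rule would name, and 1 component of the culture medium, are not reported here.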

Additional observations from a re-analysis of the deposited data

How the results depend on the processing

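Arsb was lower, and the 16 genes named in the report were higher, in all 12 alternatives, while the number of lysosomal genes that passed depended on single libraries. The range over the fits that left out 1 library was 1119 to 3475 genes called, 598 to 2323 higher and 521 to 1152 lower among all tested, and 17 to 39 of the 48 lysosomal genes higher. By role it was 6 to 11 proteases, 3 to 7 glycosidases, 0 to 1 sulfatases and 3 to 5 lipid genes. For the other roles it was 0 to 3 activators, 2 to 7 membrane genes and 2 to 6 pump genes. For the related lists it was 11 to 21 lumenal, 4 to 13 membrane, 3 to 11 pump, 1 to 6 sorting, 4 to 14 MiT/TFE and nutrient sensing, 1 to 2 cathepsin inhibitor and 1 to 10 autophagy genes. With no filter 1132 genes were higher, with 0 sulfatases, 2 sorting genes, 7 MiT/TFE and nutrient sensing genes and 1 cathepsin inhibitor. After quantile normalization these lists had 0, 1, 8 and 1. The sign of Glb1 turned after quantile normalization (-0.0864) and median centring (-0.0153) and ran from -0.0507 to 0.056 when 1 library was left out, and that of Neu1 turned after quantile normalization (-0.0251). The cause was not tested. Quantile normalization also ended the calls of Ids, Cd63, Ppt1, Man2b1 and Manba, no filter those of Ids, Ppt1, Manba and Atp6v1h, and median centring that of Ppt1. Some related and marker genes also lost calls with all libraries kept. Quantile normalization ended those of Tfeb, M6pr, Nagpa, Nfatc1 and Gp1ba. No filter ended those of Tfeb, Nagpa, Nfatc1, Atg12, Tpcn1 and Hdc, and no trend those of Atg12 and Hdc.

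With a replicate block 2632 genes were higher, 41 of the 48 lysosomal genes among them, and 8 sorting genes. The deviations of same-numbered libraries correlated at 0.491, 0.116 and 0.041 for numbers 1, 2 and 3, which does not establish a pairing for all 3 numbers. WT replicates 1 and 2 correlated best with the DM library of their own number, and WT replicate 3 with DM replicate 2 (0.124). A batch shared by same-numbered libraries was not tested. Depth is unknown, so no limit of detection can be given.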
